A study of Homo sapiens with 6 samples.

Results

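The genes described here are complement component C3 and 8 partners and regulators of complement, namely CFB, C1R, C1S, SERPING1, CD46, CD55, CD59 and CLU. They were taken from the table of expression values by gene symbol, and 8 of the 9 were found among its 31785 rows. CFB is not analysed here. The list was drawn up with earlier results of the knockdown against wild-type comparison known, among them the lower C3. All differences of these 8 genes between the groups are therefore given as a description, and nothing is supported with them.

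Complement is a cascade of plasma and tissue proteins that tags surfaces for removal and can punch pores into membranes. Its classical arm starts with the proteases C1R and C1S, all arms meet at C3, and the terminal components assemble the pore. Cells restrain it with soluble inhibitors such as SERPING1, CLU and vitronectin and with membrane inhibitors such as CD46, CD55 and CD59. In the brain most complement is made locally, by glia and neurons, and C3 fragments mark synapses for removal by microglia.

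RNA had been sequenced from D283 Med, an established line grown from a childhood medulloblastoma, a cerebellar tumour, which the study places in Groups 3 and 4. The 3 knockdown libraries came from cells in which Musashi-1 was the target (gene MSI1), which binds RNA in stem cells of the nervous system, and the 3 WT libraries from cells labelled wild type. All were kept in the same serum-containing medium. The method of knockdown, any control construct in WT cells and any picking of clones are not in the labels. Nor is it stated that libraries of 1 group are separate cultures, so p-values measure only the spread between libraries, which may be technical. The design asks which transcripts differ once Musashi-1 has been targeted.

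Depth was 18895997 to 24442276 reads in knockdown and 17299671 to 38790342 reads in WT. MSI1 itself had 1385, 1197 and 1281 normalised reads in knockdown, against 1586, 1572 and 1378 in WT, and its difference of −0.21 (SE 0.12) did not pass (limma, adjusted p = 0.304). The libraries labelled knockdown thus overlapped WT in MSI1 mRNA. Values are normalised reads, which are reads divided by a size factor per library, and each difference is the knockdown mean less the WT mean of the deposited log2-like values, which understate changes of weak genes. Of 9 markers of Group 3 and 4 medulloblastoma, OTX2 had 27356 to 34344 normalised reads in knockdown and 19886 to 26228 in WT. NEUROD1, CRX and ZIC1 had 974 or more in every library. UNCX rose, with 156 to 355 normalised reads in knockdown and 25.3 to 35.1 in WT (difference 1.52, SE 0.20, limma, adjusted p = 0.00672). RBM24 had 196 to 231 in knockdown and 246 to 307 in WT (limma, adjusted p = 0.194). EOMES had at most 19.6 normalised reads in any library, and LMX1A and BARHL1 averaged under 3.

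C3, the protein at which all arms meet, was lower in knockdown. It had 1349, 948 and 1132 normalised reads in knockdown 1, 2 and 3, against 4098, 3556 and 2102 in WT 1, 2 and 3. The groups did not overlap, and WT 3 was the lowest WT library. The means were 1143 ± 201 in knockdown and 3252 ± 1032 in WT (SD, n = 3 each), so knockdown held 35.1% of the WT level. The difference was −1.39 (SE 0.22). In bulk RNA, fewer cells that express a gene and less RNA per cell cannot be told apart. The gene is at chr19:6677704-6730562 (GRCh38, minus strand) and shares no exon with another annotated gene.

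Markers of cells that make or bind C3 were looked at beside it. Of 11 microglia and macrophage markers, 8 were in the table and all 8 lay below the filter on low values. Their summed level was 12.6 to 21.5 normalised reads in knockdown and 13.2 to 55.3 in WT. PTPRC, CD68, CD14, CX3CR1 and C1QA averaged under 3 over the 6 libraries. Of these, PTPRC had 0 in every knockdown library and 1.26 to 2.93 in WT, and CD14 had 0 in every knockdown library and 1.46 to 12.3 in WT. The 7 astrocyte markers summed to 2841 to 3599 in knockdown and 3059 to 4515 in WT, mostly through GJA1 (2095 to 2912 in knockdown and 1871 to 3497 in WT) and SLC1A3 (575 to 690 in knockdown and 467 to 1060 in WT), while GFAP, AQP4, ALDH1L1 and S100B stayed at 9.98 normalised reads or less. Fibroblast markers summed to 2201 to 2374 in knockdown and 2214 to 2790 in WT, mostly through PDGFRA (1274 to 1485 in knockdown and 1102 to 1485 in WT), with LUM averaging under 3. Endothelial markers summed to 425 to 789 in knockdown and 534 to 808 in WT, mostly through FLT1 (237 to 459 in knockdown and 255 to 565 in WT), with PECAM1 and TEK averaging under 3. Of 8 hepatocyte markers 5 were in the table, and their sum of 112 to 509 in knockdown and 218 to 2312 in WT was nearly all TTR (transthyretin, also a product of the choroid plexus), with APOB averaging under 3. The part of these lists in the C3 result was not tested.

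The classical proteases were near the limit of detection. C1R, which cleaves and activates C1S, had 13, 12 and 2 reads in knockdown, against 15, 61 and 46 in WT, before normalisation. Normalised, these were 13.2, 15.1 and 2.15 in knockdown and 22.0, 38.5 and 35.3 in WT. The groups did not overlap, though knockdown 3 rests on 2 reads. C1S, which cleaves C4 and C2, had 17, 16 and 27 reads in knockdown, against 18, 27 and 69 in WT. Its groups overlapped, with means of 22.1 ± 6.13 normalised reads in knockdown and 32.1 ± 18.6 in WT (SD, n = 3 each). Both genes averaged less than 1 above the lowest value of the table, which was the filter for testing (27.6 normalised reads). They were thus left out of the main test, and in the fit of all rows neither passed (limma, adjusted p = 0.129 for C1R and 0.755 for C1S). They neighbour each other, C1R at chr12:7080199-7092607 (minus strand) and C1S at chr12:6988259-7071032 (plus strand). C1R shares exon positions with C1RL, and C1S with EMG1, so reads of those exons may have been assigned to either gene. The same limit applies to CD59, which shares exon positions with AL049629.2, a protein-coding gene on the same strand. CLU shares exon positions with MIR6843, a microRNA gene on the same strand.

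**Figure D1:**
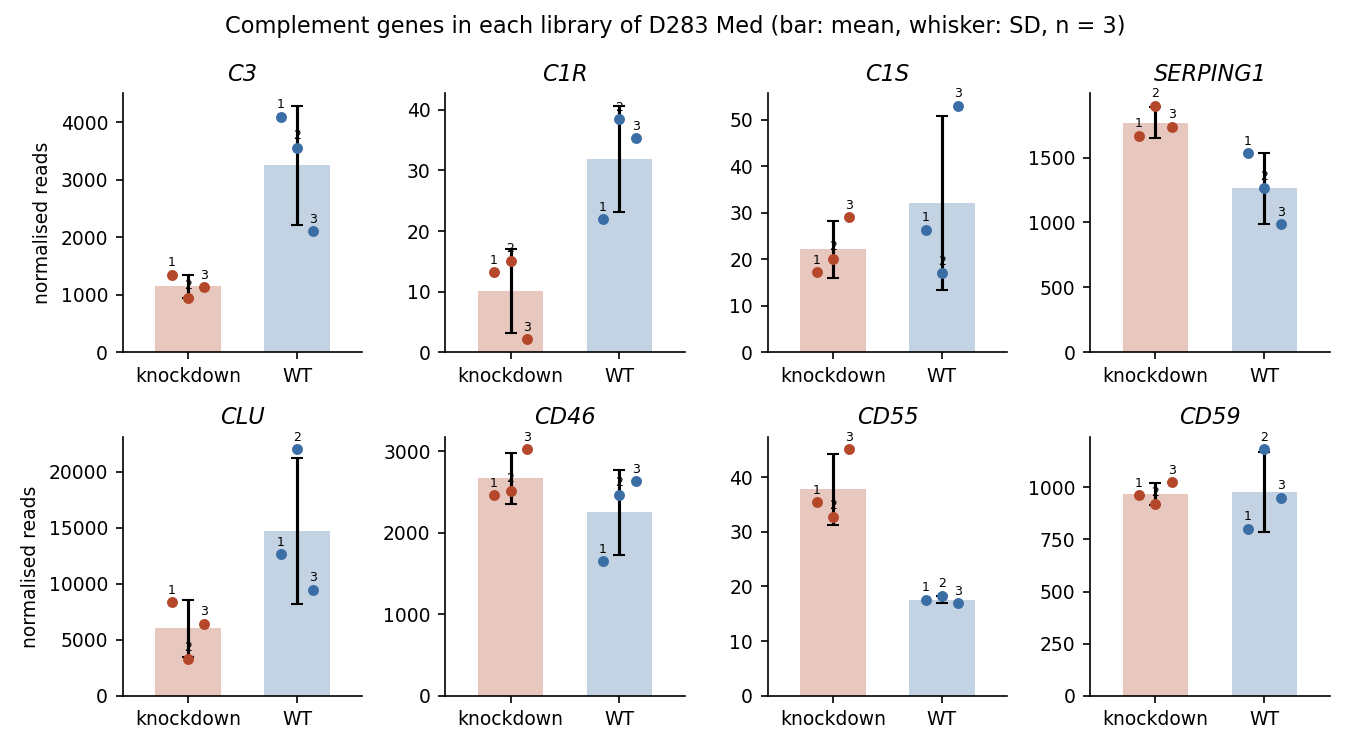
Normalised reads (vertical axes, each from 0) of the 8 complement genes in the 3 knockdown and 3 WT libraries of D283 Med; points are libraries numbered by replicate, bars means and whiskers SDs. C3, CLU and C1R were lower in every knockdown library than in any WT library, SERPING1 and CD55 were higher, and CD46, CD59 and C1S overlapped.

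Of the 2 RefSeq promoter windows of C1R (300 bases around a start site, GRCh38.p14), 1 holds the palindrome TTCNNNGAA bound by STAT factors. The palindrome occurs in 7.66% of 35116 promoter windows (both strands). The C1R window that holds it lies inside the annotated gene, and the window at the start of the gene (chr12:7092396-7092695) holds none. The palindrome is also in 2 of the 4 windows of CD59, which overlap, and in the 1 window of CFB. The C1R window is shown as an example, on the minus strand at chr12:7091844-7092143, with the palindrome in capitals. Nothing is drawn from these matches.
C1R promoter: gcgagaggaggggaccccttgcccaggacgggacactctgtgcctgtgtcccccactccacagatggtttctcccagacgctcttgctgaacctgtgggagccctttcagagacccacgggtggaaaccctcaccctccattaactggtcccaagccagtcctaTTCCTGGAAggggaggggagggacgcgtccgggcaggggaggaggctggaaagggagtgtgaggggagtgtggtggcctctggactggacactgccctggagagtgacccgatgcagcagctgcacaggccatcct

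SERPING1 (chr11:57597387-57614853, plus strand), the C1 inhibitor, which inactivates C1R and C1S, was higher in knockdown. It had 1669, 1899 and 1739 normalised reads in knockdown, against 1536, 1265 and 988 in WT. Every knockdown library was above every WT library, and the nearest were knockdown 1 and WT 1. The means were 1769 ± 118 in knockdown and 1263 ± 274 in WT (SD, n = 3 each), a ratio of 1.40, with a difference of 0.47 (SE 0.15). Per kilobase of exon, the ratio of C3 to SERPING1 was 0.35, 0.22 and 0.28 in knockdown 1, 2 and 3 and 1.15, 1.22 and 0.92 in WT 1, 2 and 3. C3 was thus well under its WT proportion to the C1 inhibitor in all 3 knockdown libraries.

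CLU (chr8:27596917-27615031, minus strand), clusterin, a secreted chaperone that keeps the terminal complex out of membranes, had the highest mean level of the set. It had 8329, 3276 and 6430 normalised reads in knockdown, against 12620, 21998 and 9451 in WT. All knockdown libraries were below all WT libraries, but the libraries of each group were far apart, with the highest 2.54 times the lowest in knockdown and 2.33 times in WT. The means were 6012 ± 2552 in knockdown and 14689 ± 6524 in WT (SD, n = 3 each), and knockdown held 40.9% of the WT level. The difference was −1.28 (SE 0.35), and it was −0.90 without knockdown 2 and −0.95 without WT 2. On the log2-like scale its SD was 0.68 in knockdown, above that of 99.7% of all genes kept for testing, and 0.61 in WT, above 98.6%. C3 had an SD of 0.23 in knockdown, above 86.3% of genes, and 0.49 in WT, above 96.7%. SERPING1 had an SD of 0.09 in knockdown, above 31.3% of genes, and 0.29 in WT, above 81.0%.

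For the membrane inhibitors CD46 and CD59 the groups overlapped. CD46 (chr1:207752057-207795513, plus strand), the cofactor with which factor I cleaves C3b and C4b, had 2460, 2515 and 3022 normalised reads in knockdown, against 1649, 2464 and 2630 in WT. WT 1 alone was low, and the difference was 0.26 (95% interval −0.12 to 0.63), or 0.06 without WT 1. CD59 (chr11:33703010-33736491, minus strand), which blocks the insertion of C9 into the pore, had 963, 921 and 1026 normalised reads in knockdown, against 802, 1183 and 950 in WT. The knockdown libraries all lay inside the WT range. Its difference was 0.0025 (95% interval −0.31 to 0.32), so changes to 80.6% or to 124% of WT are within the interval.

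CD55 (chr1:207321376-207386804, plus strand), decay-accelerating factor, which breaks up the C3 convertases, was weak. It had 35, 26 and 42 reads in knockdown, against 12, 29 and 22 in WT, before normalisation. Normalised, it had 35.4, 32.7 and 45.1 in knockdown, against 17.6, 18.3 and 16.9 in WT. All knockdown libraries were above all WT libraries, and the means of 37.7 ± 6.50 in knockdown and 17.6 ± 0.70 in WT (SD, n = 3 each) gave a ratio of 2.15. With a mean of 0.98 above the lowest value CD55 lay just outside the filter of 1. C1S lay just outside too, at 0.97, and C1R further out at 0.82, while the weakest member inside, CD59, lay at 4.29.

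CD55 and CD46 both lie in the cluster of complement regulators on chromosome 1, and per kilobase of exon CD46 exceeded CD55 by 45.5 to 52.2 times in knockdown and 63.7 to 106 times in WT. Their RefSeq promoter windows (GRCh38.p14, plus strand, chr1:207321428-207321727 for CD55 and chr1:207751788-207752087 for the first of 2 windows of CD46) are shown to set these unequal neighbours side by side. Capitals mark the GC box, GGGCGG on either strand, of which CD55 has 1 and CD46 has 3. A GC box occurs in 45.0% of the 35116 windows. Nothing is drawn from these counts, and the part of GC boxes in the levels was not tested.
CD55 promoter: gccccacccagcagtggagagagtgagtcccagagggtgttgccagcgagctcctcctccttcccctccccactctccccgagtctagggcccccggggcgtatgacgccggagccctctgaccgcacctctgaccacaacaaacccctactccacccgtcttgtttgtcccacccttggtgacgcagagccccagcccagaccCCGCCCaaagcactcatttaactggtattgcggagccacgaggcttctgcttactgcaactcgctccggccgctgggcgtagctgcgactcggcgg
CD46 promoter: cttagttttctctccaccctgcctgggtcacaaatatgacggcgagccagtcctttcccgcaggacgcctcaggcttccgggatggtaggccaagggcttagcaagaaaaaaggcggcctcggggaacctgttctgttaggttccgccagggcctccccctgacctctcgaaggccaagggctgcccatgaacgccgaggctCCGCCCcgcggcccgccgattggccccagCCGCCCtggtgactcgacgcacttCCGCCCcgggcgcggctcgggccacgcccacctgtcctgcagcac

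**Figure D2:**
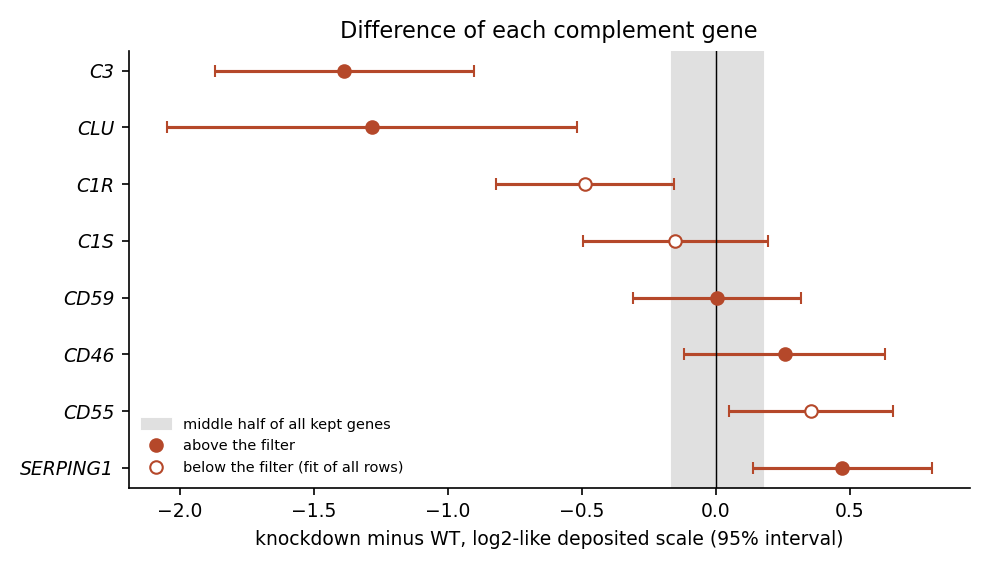
Difference of each complement gene, knockdown minus WT, on the deposited log2-like scale (horizontal axis), with 95% intervals from limma; open points are genes below the filter, fitted with all rows, and the grey band spans −0.16 to 0.17, the quartiles of all kept genes. C3 (−1.39), CLU (−1.28) and C1R (−0.49) lie left of the band. Right of it are SERPING1 (0.47), CD55 (0.35) and CD46 (0.26). C1S (−0.15) lies inside it, and CD59 (0.0025) at its centre. The intervals of C1R and CD55 leave out 0, but no open point passed in the fit of all rows (limma, adjusted p = 0.129 for C1R, 0.755 for C1S and 0.271 for CD55).

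In the fit over all 13558 kept genes, C3 was the 1 of the 5 kept members past an adjusted p of 0.05, while 4.10% of all kept genes were, 1.78% higher and 2.32% lower in knockdown. It was no longer past it without knockdown 2 (limma, adjusted p = 0.0521, range over 15 alternatives 0.000457 to 0.0521). Groups did not overlap for C3, SERPING1 and CLU, 3 of the 5, as for 27.8% of all kept genes (14.1% with knockdown higher and 13.6% with knockdown lower), and for C1R and CD55, 2 of the 3 members below the filter, as for 7.81% of such rows. Since the members were chosen on this contrast, nothing is read from these counts. Of the 5 kept members 3 had a positive and 2 a negative difference, with a median of 0.0025, against 0.0061 over all kept genes.

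Levels of different genes can be compared only per length. Per kilobase of all annotated exons, the order in knockdown was CLU with 909 ± 386 normalised reads, SERPING1 with 491 ± 32.7, CD46 with 306 ± 35.6, C3 with 137 ± 24.1, CD59 with 93.6 ± 5.11, CD55 with 6.39 ± 1.10, C1S with 3.42 ± 0.95 and C1R with 1.72 ± 1.19 (SD, n = 3). In WT it was CLU with 2220 ± 986, C3 with 391 ± 124, SERPING1 with 351 ± 76.1, CD46 with 258 ± 60.3, CD59 with 94.5 ± 18.5, C1R with 5.42 ± 1.49, C1S with 4.97 ± 2.89 and CD55 with 2.98 ± 0.12 (SD, n = 3). Libraries of neighbours overlapped for CLU and SERPING1 in knockdown, and for C3 and SERPING1, SERPING1 and CD46, C1R and C1S, and C1S and CD55 in WT. All other neighbours were separate. C3 thus stood below SERPING1 and CD46 in knockdown and next to CLU in WT, and per kilobase it exceeded 50.1% of kept genes in knockdown and 77.7% in WT. With the length of the 1 transcript that has the longest coding sequence in place of all exons, CD46 came next to CLU in both groups, and C3 stood below SERPING1 in knockdown and above it in WT.

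**Figure D3:**
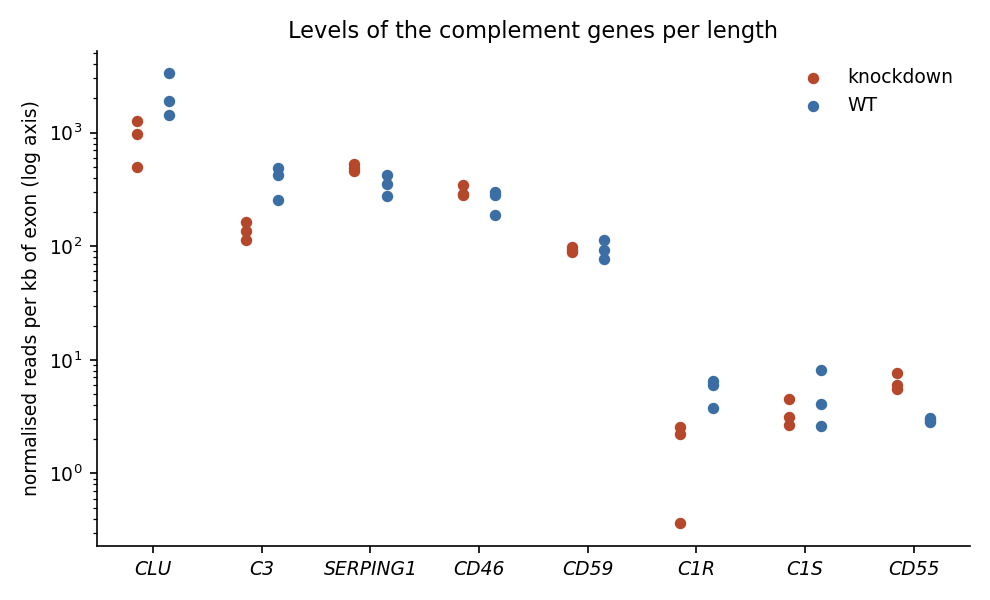
Normalised reads per kilobase of exon (vertical log axis) of the 8 complement genes, ordered by their WT mean; each point is a library, knockdown left and WT right of each gene. CLU had the highest mean in both groups, though SERPING1 (527) was above CLU (495) in knockdown 2. C3, SERPING1, CD46 and CD59 lay between 77.5 and 527, and C1R, C1S and CD55 were at 8.20 or less.

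Musashi-1 is known to bind 3′ untranslated regions (3′ UTRs) at a short motif, found in vitro with the mouse protein. It was searched on the sense strand as AGT preceded by 1 to 3 T and, before those, by G or by A, in the GENCODE 29 transcript with the longest coding sequence. Of 11611 kept genes with a 3′ UTR, 65.9% hold at least 1, over a median length of 1061 bases. CD46 has 7 in 1922 bases and CD59 17 in 7116 bases. C3 has none in 178 bases, SERPING1 none in 233, CD55 none in 157, C1R none in 111, C1S none in 381 and CLU none in 1324. The sites are thus in the 2 members with the longest 3′ UTRs. Over the 3′ UTRs of kept genes there are 2.11 per kilobase. A match is a description of the sequence and does not show binding.

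The 7 matches of CD46 are printed with up to 10 bases on each side and the motif in capitals, since CD46 is the shorter of the 2 transcripts that hold any. Positions count from the first base after the stop codon.
CD46 base 56: aaaatcttcaATAGTtgttattctgt
CD46 base 70: ttgttattctGTAGTttcactctcat
CD46 base 302: ttagagaaatATAGTtcacaatgaaa
CD46 base 773: agtgaacactGTAGTcttgttgtttt
CD46 base 1273: aaattttatGTTTAGTtgcacaaatt
CD46 base 1381: agacatgtttATAGTgctctgtaaat
CD46 base 1410: cctttcctttGTAGTctctggcaaga

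The profile of C3 over the 6 libraries was most like those of SEMA3A, CDH2, TULP1, RFTN1 and FEZ1. Likeness was the mean absolute difference between log2-like values after each gene was centred on its own mean, among 10871 other genes. It was 0.11 for SEMA3A, a repulsive axon guidance ligand, 0.13 for CDH2, N-cadherin, and 0.20 for TULP1, a tubby-family protein of photoreceptors. It was 0.20 for RFTN1, a lipid raft protein, and 0.23 for FEZ1, an adaptor of kinesin transport. TULP1 had 98.2, 98.1 and 104 normalised reads in knockdown, against 386.5, 371.5 and 245 in WT. Like C3, TULP1 was lowest of the WT libraries in WT 3, but it was picked for likeness to C3, so nothing is read from this. Among the members CLU was the nearest to C3, at 0.36, and SERPING1 the farthest, at 0.93. The closest pair was CD46 and CD59, at 0.17.

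**Figure D4:**
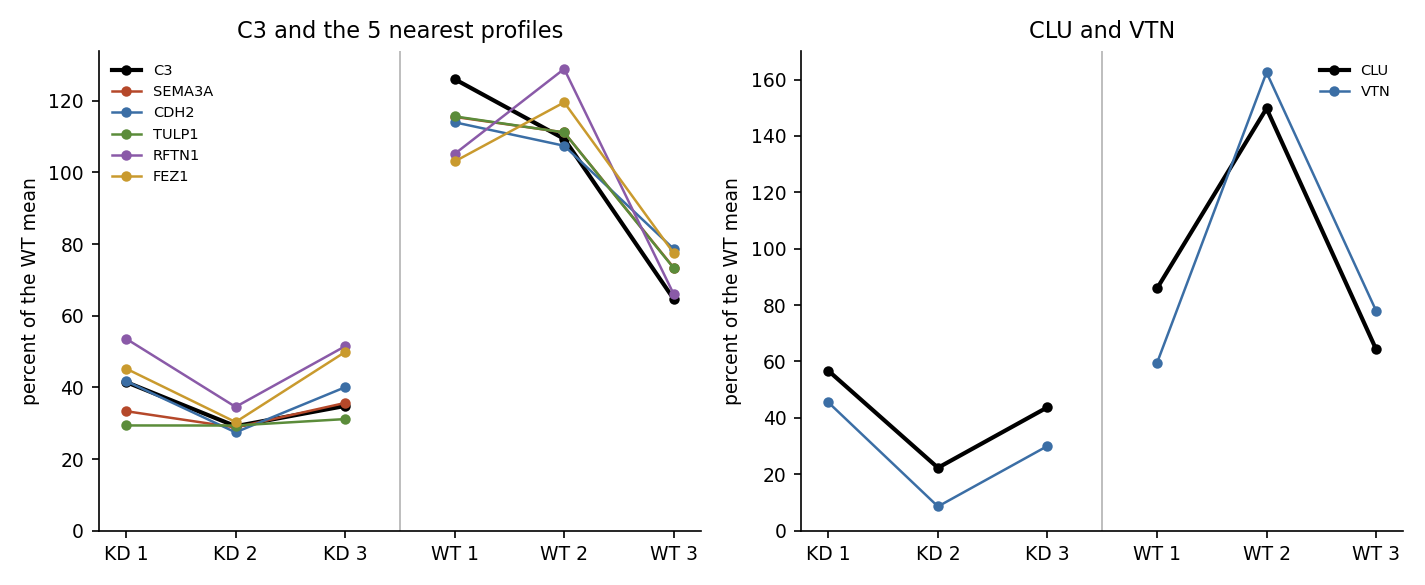
Normalised reads as a percentage of the WT mean (vertical axes) in the 3 knockdown and 3 WT libraries, for C3 with its 5 nearest profiles (left) and for CLU with VTN (right); lines join libraries of a group only to guide the eye. C3 and its neighbours were lowest of the WT libraries in WT 3, and CLU and VTN were highest in WT 2 and lowest in knockdown 2. The neighbours were picked for likeness to C3, and VTN was set beside CLU after its values were seen.

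Beyond the members, the wider pathway was thinly expressed. Of 53 other complement genes 33 were in the table, 9 passed the filter and 24 did not; the other 20 are not analysed here. None of the 9 passed the test (limma, adjusted over all genes), 1 had an unadjusted p under 0.05, as had 22.0% of all kept genes, and limma voom on recovered reads called none. With 2 higher and 7 lower their median difference was −0.20, against 0.0061 over all kept genes. The recognition molecules and early proteases were represented by COLEC12, a scavenger collectin with 540 ± 78.4 normalised reads in knockdown and 639 ± 116 in WT, by COLEC11, a soluble collectin of the lectin pathway (78.0 ± 12.5 in knockdown and 107 ± 24.7 in WT), and by MASP2, the lectin pathway protease that cleaves C4 and C2 (62.0 ± 21.8 in knockdown and 83.7 ± 31.5 in WT). C4A and C4B, near-identical copies that reads cannot separate, averaged under 3. Of the terminal pathway only C7 passed the filter, with 125 ± 38.4 in knockdown and 122 ± 35.9 in WT, while C5 had up to 41.5. Of the receptors, C5AR1, the receptor of C5a (26.6 ± 6.39 in knockdown and 41.3 ± 27.0 in WT), and ITGAX, the alpha chain of complement receptor 4 (46.9 ± 31.7 in knockdown and 42.2 ± 32.1 in WT), were weak. Its beta chain ITGB2 averaged under 3. CALR, which also serves as a receptor of collectins and C1q, had 20678 ± 2134 in knockdown and 24904 ± 8792 in WT, and C1QBP, a mitochondrial protein that binds C1q, 2941 ± 552 in knockdown and 3073 ± 719 in WT (SD, n = 3 throughout).

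VTN, vitronectin, which like CLU holds the terminal complex in solution, had the largest difference among these 9. It had 453, 85.5 and 299 normalised reads in knockdown, against 593, 1620 and 778 in WT. No knockdown library reached a WT library, and knockdown 2 and WT 2 stood at the extremes as they did for CLU. The means were 279 ± 185 in knockdown and 997 ± 548 in WT (SD, n = 3 each). The difference of −1.58 (SE 0.40) did not pass (limma, adjusted p = 0.0570, range over 15 alternatives 0.00851 to 0.137), and it was −1.11 without knockdown 2 and −1.20 without WT 2. VTN was the 8th nearest profile to CLU among 10871 genes, a comparison made after its values were seen. The 5 nearest to CLU were RCAN2 (0.14), PGA5, TMEM255A, CA4 and RELN (0.21), none from the complement lists, against 0.24 for VTN. VTN is on chromosome arm 17q, where 514 of 578 kept genes were lower in knockdown with a median of −0.33, and it had the lowest difference of them. The part of that arm in the VTN result was not tested.

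Among factors known to drive transcription of complement genes, the receptor chains, kinases and STAT3 of the interleukin-6 arm are given per library. The interleukin-6 gene itself was not on the list. Interleukin-6 binds IL6R and the shared chain IL6ST (gp130), whose kinases JAK1 and JAK2 activate STAT3. Of 23 such inducers 20 passed the filter and 1 fell, STAT3, with 8 higher and 12 lower and a median of −0.09. That 1 of 20 stands beside 4.10% of all kept genes called, 2.32% lower. Groups did not overlap for 6 of the 20, near the 27.8% of all kept genes. STAT3 had 4053, 3976 and 4072 normalised reads in knockdown, against 5218, 5799 and 5891 in WT. The groups did not overlap and the knockdown libraries lay within 1.02 times of each other. The difference was −0.47 (SE 0.11, limma, adjusted p = 0.0437, range over 15 alternatives 0.0151 to 0.167), past the threshold in 6 of the 15 alternatives. It was no longer past it without any 1 of knockdown 1, 2 or 3 (0.167, 0.124 and 0.164), without WT 2 (0.0995) or without WT 3 (0.0726). STAT3 is also on 17q, with a difference at percentile 27.2 among those 578 genes, and the part of that arm was not tested.

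The other genes of that arm of signalling were named after their values were seen, except JAK1. JAK1 had 2126, 1950 and 2153 normalised reads in knockdown, against 2940, 3350 and 2332 in WT (difference −0.44, SE 0.14, limma, adjusted p = 0.107). IL6R had 695, 714 and 765 in knockdown, against 952, 1299 and 1870 in WT (−0.79, SE 0.19, limma, adjusted p = 0.0506). IL6ST had 761, 903 and 860 in knockdown, against 1015, 1559 and 1190 in WT (−0.51, SE 0.15, limma, adjusted p = 0.0920), and JAK2 had 56.7, 41.5 and 45.1 in knockdown, against 87.9, 80.7 and 66.8 in WT (−0.33, SE 0.13, limma, adjusted p = 0.167). None of these 4 passed. Nothing is read from their shared direction, since IL6R, IL6ST and JAK2 were named with their values known. With STAT3 they are 5 of the 6 inducers whose groups did not overlap. The sixth, IRF1, was higher, with 136 ± 12.1 in knockdown and 114 ± 8.06 in WT (SD, n = 3; difference 0.15, SE 0.12, limma, adjusted p = 0.510). SOCS3, which STAT3 induces, had 146 ± 25.8 in knockdown and 203 ± 57.7 in WT, with overlapping groups. CEBPA, CEBPB and CEBPD, transcription factors on the same list, had differences of 0.22, 0.05 and 0.0048 (SE 0.15, 0.22 and 0.17). Their groups overlapped and none passed (limma, adjusted p = 0.429, 0.914 and 0.991).

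**Figure D5:**
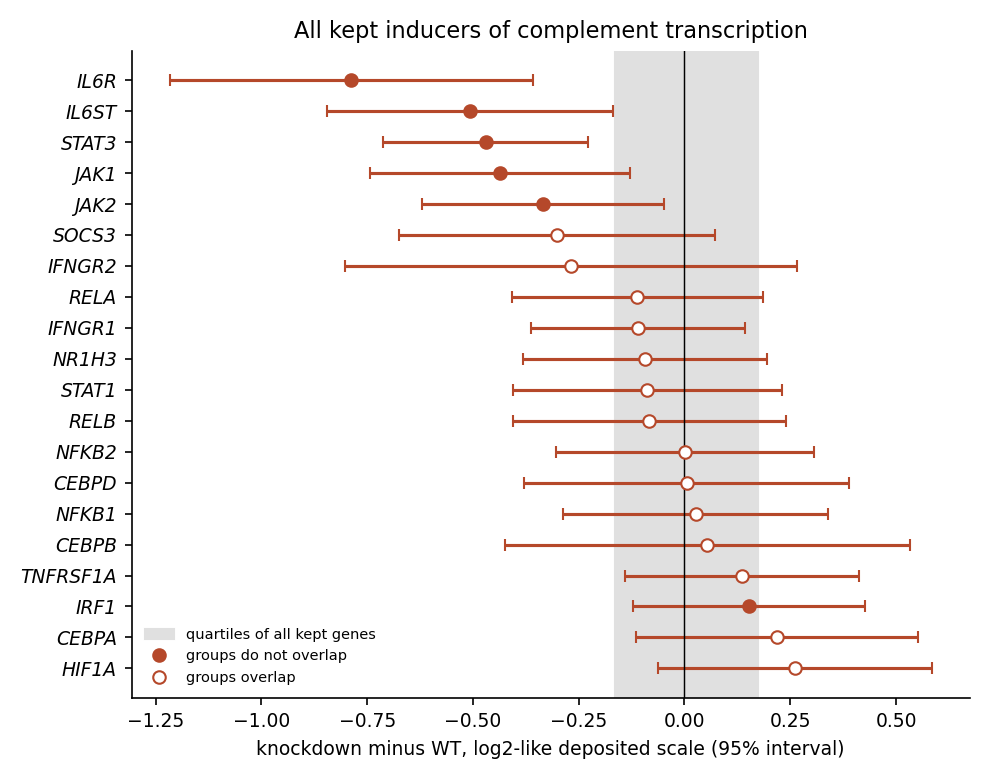
Difference of each of the 20 kept inducers, knockdown minus WT, on the deposited log2-like scale (horizontal axis) with 95% intervals from limma; filled points are genes whose groups do not overlap, and the grey band spans −0.16 to 0.17, the quartiles of all kept genes. Filled are STAT3, IL6R, IL6ST, JAK1 and JAK2 left of 0 and IRF1 right of it, 6 of 20.

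The NF-kB subunits, which drive C3 and CFB in inflammation, did not pass. NFKB1 had 694 ± 116 in knockdown and 675 ± 63.6 in WT, NFKB2 873 ± 146 in knockdown and 866 ± 69.7 in WT, and RELA 2413 ± 398 in knockdown and 2596 ± 147 in WT (SD, n = 3). HIF1A, the hypoxia factor and the most abundant gene of the list over the 6 libraries together, had 6081 ± 1184 in knockdown and 5003 ± 289 in WT (difference 0.26, SE 0.15, limma, adjusted p = 0.326). None of the 10 acute phase genes in the table, of 18 listed, passed the filter, and the highest value of any in any library was 26.3 normalised reads. They include HP, LCN2, CP and A2M, which liver or activated glia make together with C3.

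Relatives of the members by structure were set beside them. C3 belongs to the thioester proteins, of which 8 of 10 were in the table and 1 other passed the filter. That 1, CD109, a membrane-anchored member, had 388 ± 26.5 normalised reads in knockdown and 363 ± 36.7 in WT (SD, n = 3; difference 0.08, SE 0.13, limma, adjusted p = 0.765). Of 10 other serpins, the inhibitor family of SERPING1, 7 were in the table and 3 passed the filter. None of these 3 passed the test, with 1 at an unadjusted p under 0.05 (22.0% of all kept genes) and none by limma voom. SERPINF1, pigment epithelium-derived factor, had 6970 ± 1118 in knockdown and 9164 ± 1096 in WT (difference −0.40, SE 0.15, limma, adjusted p = 0.167). SERPINH1, a collagen chaperone, had 5335 ± 532 in knockdown and 4808 ± 67.5 in WT (0.14, SE 0.12), and SERPINE2, an inhibitor of thrombin, 890 ± 79.2 in knockdown and 893 ± 115 in WT (−0.0012, SE 0.13).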

How the data were processed

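The deposited table holds 1 log2-like value per gene and library for 6 libraries of D283 Med. Its name and values show the log2 scale of a variance-stabilising transformation, applied by the authors after normalisation. The submitters' processing notes list STAR, DESeq, CASAVA 1.8.2, FastQC, MultiQC and Trim Galore with GRCh38. Counter, annotation and strand setting were not given in the sources used here. Knockdown columns carry that word in short form. The other 3 columns have a heading that no label explains, so WT is assigned to them by elimination.

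The stabilising function was inverted with the offset 55.2, the value of a count of 0 (5.79 on the log2 scale). After 1 size factor per library, 100% of values became whole reads within 0.01. These reads gave the depth, and with it the precision: C1R, C1S and CD55 rest on 2 to 69 reads per library. Genes were kept where the mean was at least 1 above the lowest value, which left 13558 of 31785 rows. Kept genes were tested with limma 3.58.1 under R 4.3.3 (moderated by empirical Bayes with a trend on the mean, two-sided, Benjamini-Hochberg over the kept genes). The fit was also run on simulated counts in which all genes had the same spread beyond counting noise. That run does not show how the test behaves for genes as variable as C3 and CLU. With 3 libraries a group, the smallest p of an exact permutation test is 0.1.

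The members and lists were chosen with earlier results of these data known. The text names all members, MSI1, called genes of the complement, inducer, acute phase, serpin and thioester lists and up to 4 of the most abundant kept genes of each, and the 5 genes nearest to C3. Genes named outside this rule are NEUROD1, the other markers, the weak genes given by their level, JAK2, IL6R, IL6ST, IRF1, NFKB1, NFKB2, SOCS3, CEBPA, CEBPB and CEBPD, chosen after their values were seen. The 5 genes nearest to CLU were also named outside it. Alternatives were a stricter filter and none, median centring, quantile normalisation, no trend, robust moderation, weights per library, a block for replicate number, leaving out each library, and limma voom on recovered reads. Places, exon lengths and 3′ UTRs are from GENCODE 29 on GRCh38, matched by symbol, and promoters from RefSeq (GRCh38.p14), which matched 5 of 8 members looked for; shares of promoters with a motif leave out chromosome 8.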

Additional observations from a re-analysis of the deposited data

How the results depend on the processing

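C3 kept its direction in all 15 alternatives, from −1.66 to −1.20, and was past the threshold in 14. CLU, SERPING1 and CD46 kept theirs too; CLU was past the threshold in 3 of 15 (no filter, library weights and without WT 3) and SERPING1 in 2 (library weights and without WT 1). The CD59 difference changed sign with median centring (−0.0127), quantile normalisation (−0.0114), library weights (−0.0493) and voom (−0.0520), and ranged from −0.118 to 0.135 with 1 library left out. Of the members, 2 were called with no filter, 3 with library weights and 0 to 2 with 1 library left out. Totals over all genes under these settings follow below, and nothing is read from counts of members or of wider complement genes. Of the wider complement genes called lower there was 1 (VTN) with no filter, with median centring and with library weights, and 0 to 1 with 1 library left out.

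Over all genes 242 were called higher and 314 lower in knockdown. With no filter they were 270 and 389 of 31785 rows, with the stricter filter 214 and 273, and with median centring 236 and 370. With library weights they were 532 and 681 of 13558 kept genes, and with 1 library left out 25 to 329 and 31 to 397. With the replicate number as a block they were 101 and 120. Same-numbered libraries showed no sign of pairing, with deviations from their group means correlated at −0.0045, −0.25 and 0.0046 across genes. For libraries of different number the correlations were −0.14 to 0.18. Deviations within a group of 3 are tied to each other, so these correlations cannot exclude pairing. Of the inducers, a count added after seeing the data, 2 were called with the stricter filter and with median centring, 4 with library weights, 0 with quantile normalisation, without the trend and with the replicate block, and 0 to 3 with 1 library left out. The cause of these shifts was not tested. Counts of 2 to 69 reads per library limit C1R, C1S and CD55, for which no small change was detectable.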
